A study of Mus musculus with 12 samples.

Results

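The subject is 40 genes of S phase and mitosis in mouse liver, 15 that act in DNA replication and 25 that act in mitosis. They were chosen by name, from a list of cell cycle genes, and each was found by its gene symbol in the deposited tables of liver RNA sequencing. All 40 occur in at least 1 of the 4 tables, among 14944 genes in any table, and 36 occur in all 4. Of these, 35 (14 DNA replication genes and 21 mitosis genes) had enough reads to be tested, among 12909 genes.

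The livers came from 12 male mice on a C57BL/6 background, 3 per group. The labels give a DEN group of Otud3 knockout mice, a DEN group of wild-type (WT) littermates, and the same 2 genotypes labelled No DEN. Otud3 encodes a deubiquitinase, an enzyme that removes ubiquitin from proteins. DEN is diethylnitrosamine, a carcinogen that hepatocytes activate, given once into the peritoneum at 25 mg/kg to pups aged 15 days, with liver taken 30 weeks later. For mice labelled No DEN neither an age nor a sham injection is given, so age and injection cannot be told apart from DEN. The labels call the tissue liver and the design text speaks of liver cancer tissue. They do not say whether a piece held tumour, nor which part of Otud3 is deleted.

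A cell that leaves quiescence first builds the machinery of DNA synthesis. The MCM helicase is loaded on replication origins, nucleotide enzymes supply the building blocks, and these genes are switched on by E2F transcription factors at the entry to S phase. The mitotic genes follow in G2 under FOXM1 and related complexes: cyclins with the kinase CDK1 drive entry into mitosis, the kinetochore and spindle proteins part the chromosomes, and the anaphase-promoting complex ends the phase. In an adult liver nearly all hepatocytes rest, so messages of these genes are scarce there, and they become abundant in regeneration and in many liver tumours.

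The promoters of Prc1, Cdk1, Ccnb2, Mcm6 and Tk1 are shown here as examples, because the DNA replication and the mitosis genes are known to be switched on through different elements. Each is 300 bases from RefSeq on build GRCm38.p6, from 250 before the gene's start to 50 after it, read 5′ to 3′ on the gene's own strand. Capitals mark matches on either strand to 3 motifs. They are the E2F motif (TTTGGCGC, TTTGCCGC, TTTCGCGC or TTTCCCGC), the cell cycle homology region, CHR (TTTGAA or TTCGAA), and CCAAT. Prc1 encodes a microtubule bundler of the dividing cell's midzone, Cdk1 the mitotic kinase, Ccnb2 cyclin B2, Mcm6 a helicase subunit and Tk1 thymidine kinase. They lie at chr7:80294201-80294500 (plus strand), chr10:69352863-69353162 (minus), chr9:70421505-70421804 (minus), chr1:128359656-128359955 (minus) and chr11:117825965-117826264 (minus), in that order.
Prc1: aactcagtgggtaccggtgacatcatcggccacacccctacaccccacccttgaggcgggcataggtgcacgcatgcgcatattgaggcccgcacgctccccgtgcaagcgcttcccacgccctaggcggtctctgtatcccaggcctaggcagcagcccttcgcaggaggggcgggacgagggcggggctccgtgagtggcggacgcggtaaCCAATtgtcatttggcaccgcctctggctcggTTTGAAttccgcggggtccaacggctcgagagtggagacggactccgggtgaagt
Cdk1: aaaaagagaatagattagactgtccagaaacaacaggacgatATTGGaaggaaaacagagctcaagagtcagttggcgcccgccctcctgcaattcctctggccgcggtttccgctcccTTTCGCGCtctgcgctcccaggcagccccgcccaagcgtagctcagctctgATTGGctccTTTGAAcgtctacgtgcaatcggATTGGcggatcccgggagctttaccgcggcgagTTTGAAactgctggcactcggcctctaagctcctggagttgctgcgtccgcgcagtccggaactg
Ccnb2: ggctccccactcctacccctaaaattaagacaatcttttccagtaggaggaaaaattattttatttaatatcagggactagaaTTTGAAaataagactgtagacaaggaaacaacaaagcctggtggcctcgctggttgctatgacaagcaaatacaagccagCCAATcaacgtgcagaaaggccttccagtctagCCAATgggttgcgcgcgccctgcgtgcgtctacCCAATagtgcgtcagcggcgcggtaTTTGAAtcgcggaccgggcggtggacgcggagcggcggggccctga
Mcm6: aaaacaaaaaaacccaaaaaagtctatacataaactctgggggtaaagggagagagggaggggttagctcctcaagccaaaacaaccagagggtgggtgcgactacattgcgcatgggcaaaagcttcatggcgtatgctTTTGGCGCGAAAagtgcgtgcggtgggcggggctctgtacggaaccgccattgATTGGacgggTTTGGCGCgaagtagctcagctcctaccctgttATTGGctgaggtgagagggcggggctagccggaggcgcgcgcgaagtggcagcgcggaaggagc
Tk1: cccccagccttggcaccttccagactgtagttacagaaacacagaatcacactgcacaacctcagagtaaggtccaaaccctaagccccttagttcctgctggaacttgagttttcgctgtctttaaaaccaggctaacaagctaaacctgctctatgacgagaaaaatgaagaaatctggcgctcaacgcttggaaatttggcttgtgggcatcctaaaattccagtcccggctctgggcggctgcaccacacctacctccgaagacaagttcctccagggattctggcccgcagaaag

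The Prc1 window holds a CHR match and a CCAAT match close to the start and no E2F match. Cdk1 holds 2 CHR matches, 3 CCAAT matches and 1 E2F match, and Ccnb2 holds 2 CHR and 3 CCAAT matches. Mcm6 holds 3 E2F matches, 2 of which overlap, with 2 CCAAT matches and no CHR match. The window of Tk1 holds none of these letters. A promoter was listed for 33 of the 40 genes. E2F letters occurred in 6 of 13 DNA replication promoters (46.2%) and 1 of 20 mitosis promoters (5%), against 2.26% of all 32851 promoters of the same length. CHR letters occurred in 2 of 13 DNA replication promoters (15.4%) and 15 of 20 mitosis promoters (75%), against 19.2% of all promoters. CCAAT occurred in 8 of 13 (61.5%) and 17 of 20 (85%), against 37.4% of all. The mitosis promoters thus shared CHR with CCAAT, which stood together in 75% of them and in 7.52% of all promoters. These matches describe letters in a window and are not shown to be bound.

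Libraries held 29668861 to 31111765 counts. DEN WT replicate 2 stood apart: on the first principal component of all tested genes, which took 49.14% of the variance, it lay at -105 and the other 11 libraries between -7.042 and 23.39. It also had the highest TMM scaling factor, 1.284, against 0.8404 to 1.115 in the other 11. Results on DEN in WT, and on the knockout label with DEN, are therefore given with and without it where it moves them. Hepatocyte markers, all 8 of which were measured, summed to 77600 to 96100 CPM in the 6 DEN libraries and to 83000 to 135000 CPM in the 6 No DEN libraries, with albumin alone at 50500 to 90500 CPM. DEN WT replicate 2 held the least of 3 of the 8, Pck1, Cps1 and Hnf4a. CPM here is the count per 1e+06 counts after TMM scaling. Otud3 itself had 201 to 409 counts in the 6 libraries labelled knockout and 350 to 560 in the 6 WT libraries, ranges that overlap. In edgeR its log2 fold change between genotypes reached -0.43 ± 0.27 (SE) with DEN, at an adjusted p of 0.581, and -0.23 ± 0.27 without DEN, at an adjusted p of 1. Reads from an undeleted part are possible, so the counts do not check the genotype, and the groups are called labelled knockout.

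The most abundant of the 40 messages were DNA replication genes, though the levels of both kinds overlapped. Levels between genes are compared in TPM, the authors' share of transcripts, which is scaled by transcript length. In the 11 libraries other than DEN WT replicate 2, Pcna, the sliding clamp of the DNA polymerases, ran from 23.16 to 36.84 TPM. Tk1, which salvages thymidine, ran from 8.31 to 32.6 TPM, and the helicase gene Mcm7 from 5.09 to 8.44 TPM. Other DNA replication genes were low, such as Mcm5 at 0.27 to 1.0 TPM and Gins2 at 0.28 to 1.15 TPM. Among the mitosis genes Cenpa, the centromeric histone H3 variant, was the most abundant at 1.69 to 3.83 TPM, while Mki67, which coats mitotic chromosomes and gives the Ki-67 antigen, lay at 0.05 to 0.21 TPM and Cenpf, a kinetochore gene, at 0.01 to 0.04 TPM. In reads this is very little: Prc1 had 4 to 18 counts and Ccnb1, cyclin B1, had 2 to 13 counts in these 11 libraries, so counting error alone is large for single mitosis genes.

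Summed over the 14 DNA replication genes listed in all 4 tables, levels were 90.8 ± 1.97 TPM in DEN labelled knockout, 113 ± 35.4 TPM in DEN WT, 69.3 ± 19.3 TPM in No DEN labelled knockout and 76.5 ± 3.87 TPM in No DEN WT (SD, n = 3 each). Without replicate 2 the DEN WT sum was 92.6 ± 0.636 TPM (n = 2), and in replicate 2 it was 153.9 TPM. Summed over 22 mitosis genes, levels were 10.8 ± 0.761 TPM in DEN labelled knockout, 23.5 ± 20.5 TPM in DEN WT, 9.22 ± 1.89 TPM in No DEN labelled knockout and 6.31 ± 0.91 TPM in No DEN WT. The DEN WT mitosis sum without replicate 2 was 11.7 ± 1 TPM, and replicate 2 held 47.13 TPM. The sums of both DEN groups were thus close to each other once that library was left out. On the CPM scale the mitosis sum was 15.7 ± 1.21 in DEN labelled knockout, 17.6 ± 2.59 in DEN WT without replicate 2, 17.5 ± 2.33 in No DEN labelled knockout and 11 ± 1.93 in No DEN WT. The mitosis sum of No DEN WT was lowest on both scales. That of DEN labelled knockout lay above that of No DEN labelled knockout in TPM and below it in CPM. The DNA replication sum in CPM was 104 ± 2.22 in DEN labelled knockout and 130 ± 32 in DEN WT, or 111 ± 1.95 without replicate 2. It was 102 ± 20.6 in No DEN labelled knockout and 104 ± 1.73 in No DEN WT, so the groups lay closer together than in TPM. In bulk tissue, more cells in cycle and more message per cycling cell cannot be told apart.

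**Figure D1:**
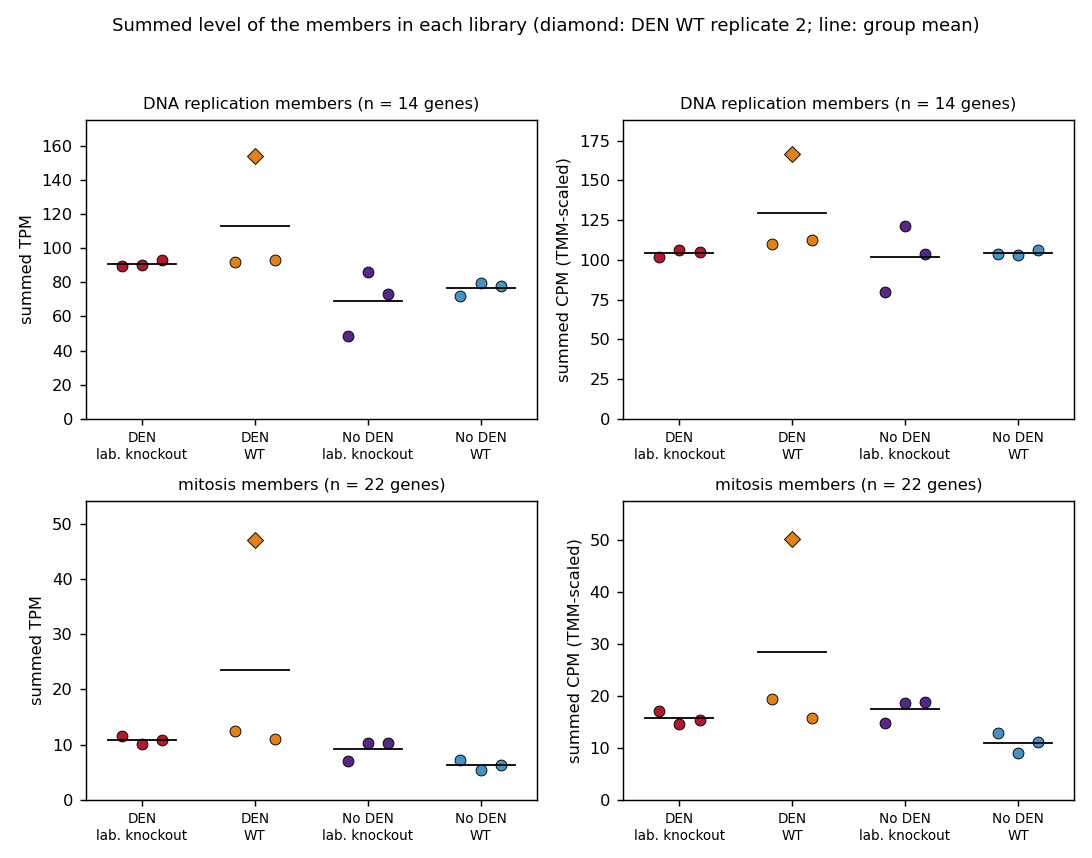
Summed level of the 14 DNA replication genes (top) and the 22 mitosis genes (bottom) listed in all 4 tables, in TPM (left) and TMM-scaled CPM (right); each point is 1 library, lines are group means and the diamond is DEN WT replicate 2. Replicate 2 holds 153.9 TPM of the DNA replication genes and 47.13 TPM of the mitosis genes, the highest value in every panel.

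DEN WT replicate 2 was the highest of the 12 libraries in 9 of the 14 tested DNA replication genes and in 18 of the 21 tested mitosis genes, against 26.2% of all genes tested. Relative to the highest of the other 11 libraries it held 5.424 times as much Mcm6, 5.265 times as much Mcm5 and 4.989 times as much Top2a, the DNA topoisomerase that untangles sister chromatids. The excess was not shared by every gene of S phase. Replicate 2 had 28.7 CPM of Pcna, inside the 24.0 to 29.9 CPM of the others, and 8.05 CPM of Rrm2, the small subunit of ribonucleotide reductase, inside 4.95 to 12.3 CPM. It had 8.47 CPM of Tk1, the lowest of the 12 libraries, where the others held 9.29 to 31.7 CPM. Of the mitosis genes, Aurka (Aurora A kinase), Plk1 (Polo-like kinase) and Kif23 (a kinesin of the cytokinetic midzone) were not highest there. With replicate 2 left out, DEN WT replicate 1 was the highest of the other 11 in 8 mitosis genes, No DEN labelled knockout replicates 2 and 3 in 4 each.

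**Figure D2:**
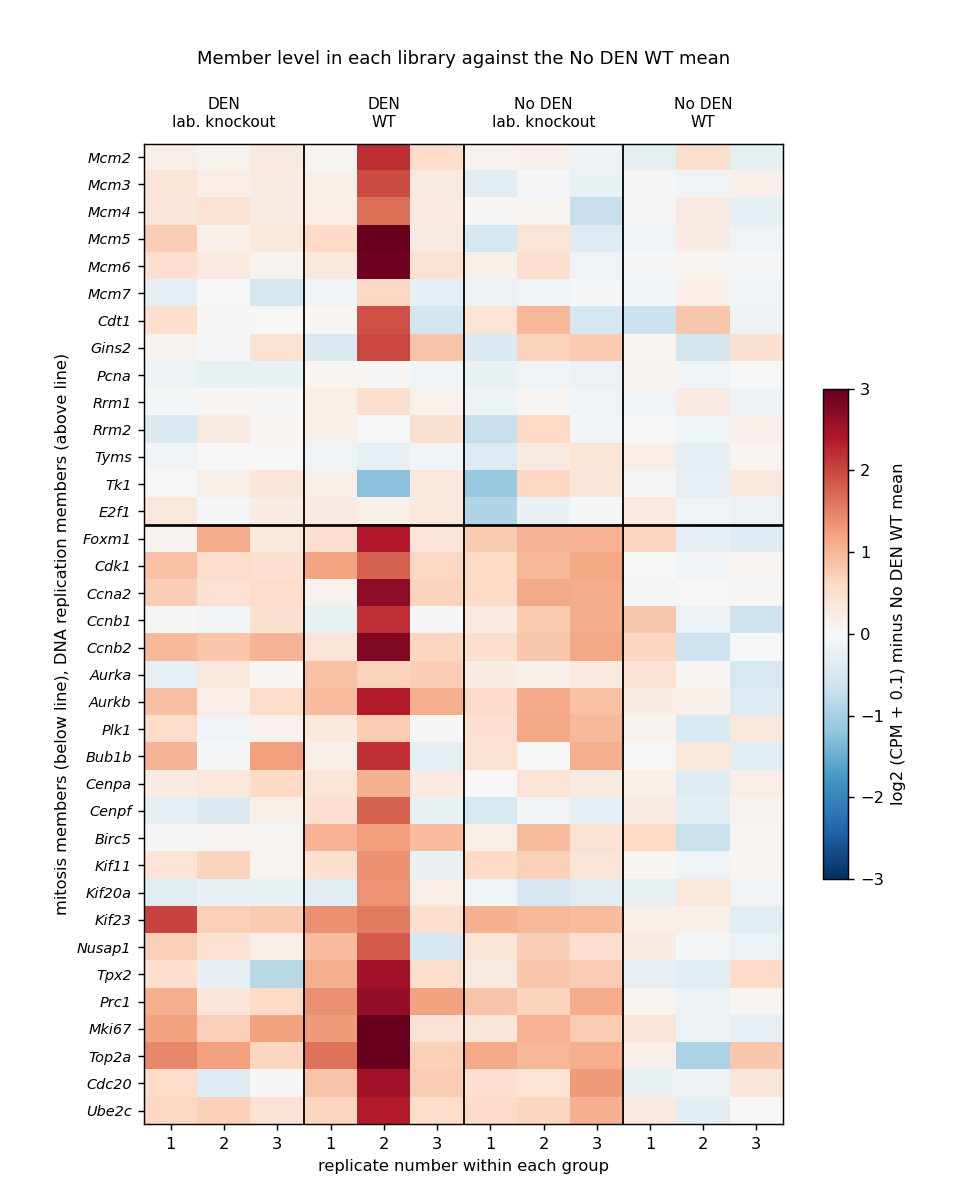
Level of the 36 genes listed in all 4 tables in each of the 12 libraries, as log2 (CPM + 0.1) minus the No DEN WT mean, with DNA replication genes above the line and mitosis genes below it; colours stop at 3 in either direction. The DEN WT replicate 2 column is the darkest for most genes, with Pcna, Tyms, E2f1 and Rrm2 pale and Tk1 blue in it, and the No DEN labelled knockout columns are warm among the mitosis genes.

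Among the DNA replication genes, none passed the test for DEN in WT (edgeR, Benjamini-Hochberg adjusted p under 0.05), where 2.74% of all genes tested passed. In edgeR 5 of the 14 had an unadjusted p under 0.05, against 29.7% of all genes, and 0 did without DEN WT replicate 2, against 25.2%. DESeq2 called 2, Mcm5 and Mcm6, against 15.1% of all genes, so both counts were near the background. The median log2 fold change was 0.52. The MCM genes encode the subunits of the replicative helicase. Mcm5 had 2.13, 12.5 and 1.70 CPM in DEN WT, against 1.30, 1.63 and 1.25 CPM in No DEN WT. All DEN WT values were above the No DEN ones, but replicate 2 set the size: with all libraries it came to 1.97 ± 0.67 in log2 fold change (edgeR adjusted p = 0.0945), but to 0.46 ± 0.34 (adjusted p = 0.414) without it. Mcm2 had 3.05, 13.6 and 4.23 CPM in DEN WT, against 2.37, 4.18 and 2.36 CPM in No DEN WT. The groups overlapped, and the log2 fold change of 1.23 ± 0.48 became 0.29 ± 0.28 without replicate 2. Mcm6 (1.79 ± 0.59), Mcm3 (1.07 ± 0.41) and Mcm4 (0.88 ± 0.39) likewise became 0.39 ± 0.22, 0.22 ± 0.18 and 0.23 ± 0.26. Mcm7 stood at 0.11 ± 0.22 with all libraries and -0.22 ± 0.16 without replicate 2. Cdt1, which loads the helicase, was at 0.78 ± 0.65 and -0.37 ± 0.52, and Gins2, a subunit of the GINS complex that activates it, at 1.28 ± 0.66 and 0.37 ± 0.59.

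The clamp and the nucleotide enzymes lay near 0 with or without that library. Pcna had 28.9, 28.7 and 26.2 CPM in DEN WT, against 29.9, 26.2 and 27.9 CPM in No DEN WT. These values overlapped fully, with a log2 fold change of 0.00 ± 0.09. Rrm2 had 8.99, 8.05 and 11.2 CPM in DEN WT, against 7.92, 7.37 and 8.88 CPM in No DEN WT, a log2 fold change of 0.22 ± 0.30. Without replicate 2 Pcna was at -0.02 ± 0.10 and Rrm2 at 0.32 ± 0.32. Rrm1, the large reductase subunit, was at 0.26 ± 0.15 with that library and 0.14 ± 0.15 without it, Tk1 at -0.13 ± 0.45 and 0.22 ± 0.39, and Tyms, thymidylate synthase, at -0.16 ± 0.21 and -0.11 ± 0.23. E2f1, a transcription factor of S phase entry, was at 0.23 ± 0.24 and 0.27 ± 0.26. The 4 nucleotide supply genes had a median of 0.04, against 1.07 for the 9 tested helicase, licensing and clamp genes. Without replicate 2 these medians were 0.18 and 0.23.

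Of the mitosis genes, Prc1 rose with DEN in WT, the only one of the 35 tested genes to pass. Among all genes tested 1.39% passed upward, so 1 of 35 is near the background. Prc1 had 0.591, 1.55 and 0.513 CPM in DEN WT, against 0.185, 0.136 and 0.184 CPM in No DEN WT. All 3 DEN livers were above all 3 No DEN livers. Prc1 was 2.38 ± 0.51 higher on the log2 scale (edgeR adjusted p = 0.0411), or 1.69 ± 0.41 when replicate 2 was left out (adjusted p = 0.0498), where 3.43% of all genes passed, 1.72% upward. The call rests on 16 to 62 counts in DEN WT and on 4 to 5 in No DEN WT, and it held in 11 of 22 alternatives, whose adjusted p ran from 0.0047 to 0.167. Of the 12 fits that left out 1 library it held in 4, those without DEN WT replicate 2 or 3 or No DEN labelled knockout replicate 1 or 3, and it was lost without any of the other 8. In these 12 fits the log2 fold change ran from 1.69 to 2.65.

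The genes of chromosome structure, Mki67 and Top2a, had large fold changes that did not pass. Mki67 had 1.44, 5.09 and 0.769 CPM in DEN WT, against 0.741, 0.476 and 0.442 CPM in No DEN WT. The groups did not overlap, though replicate 3 was only just above the highest No DEN liver. The log2 fold change of 2.14 ± 0.61 (edgeR adjusted p = 0.0690) became 1.0 ± 0.39 (adjusted p = 0.151) without replicate 2. Top2a had 1.12, 5.57 and 0.545 CPM in DEN WT, against 0.333, 0.102 and 0.590 CPM in No DEN WT. Replicate 3 lay inside the No DEN range, and 2.82 ± 0.82 (edgeR adjusted p = 0.0717) became 1.28 ± 0.56 (adjusted p = 0.186) without replicate 2.

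The cyclins and mitotic kinases divided into genes that kept most of their difference without replicate 2 and genes that did not. Cdk1 had 1.94, 2.98 and 1.28 CPM in DEN WT, against 0.815, 0.747 and 0.848 CPM in No DEN WT. All 3 DEN livers were above the No DEN livers, by a log2 fold change of 1.36 ± 0.33 (edgeR adjusted p = 0.0542) and of 1.0 ± 0.29 (adjusted p = 0.0782) without replicate 2. Aurkb, the Aurora B kinase that corrects chromosome attachment, stood at 2.05 ± 0.53 and 1.32 ± 0.44, and Aurka at 0.81 ± 0.32 and 0.86 ± 0.34. Ccna2, cyclin A2, had 0.558, 3.79 and 0.865 CPM in DEN WT, against 0.481, 0.510 and 0.516 CPM in No DEN WT. Replicate 1 was barely above the No DEN livers, and 1.79 ± 0.61 became 0.50 ± 0.33 without replicate 2. Ccnb1 had 0.131, 1.13 and 0.160 CPM in DEN WT, against 0.370, 0.136 and 0.0737 CPM in No DEN WT. Only replicate 2 was above the No DEN range, and 1.32 ± 0.83 became -0.39 ± 0.67 without it. Ccnb2 (1.84 ± 0.66 and 0.55 ± 0.44) and Bub1b, a kinase of the spindle checkpoint (1.37 ± 0.76 and -0.10 ± 0.61), lost most of theirs, while Plk1 was low in both (0.47 ± 0.43 and 0.16 ± 0.47).

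The rest of the mitotic machinery showed both kinds. Birc5, survivin of the chromosomal passenger complex, had 2.46, 2.86 and 2.28 CPM in DEN WT, against 1.78, 0.679 and 1.22 CPM in No DEN WT. The groups did not overlap, with a difference of 1.05 ± 0.34 on the log2 scale (edgeR adjusted p = 0.0875), or 0.96 ± 0.36 without replicate 2. Kif23 stood at 1.47 ± 0.49 and 1.22 ± 0.54, Tpx2, a spindle assembly factor, at 1.90 ± 0.66 and 0.99 ± 0.57, and Cdc20, an activator of the anaphase-promoting complex, at 1.84 ± 0.58 and 0.95 ± 0.45. Less remained without replicate 2 for Ube2c, the ubiquitin-conjugating enzyme of that complex (1.65 ± 0.52 and 0.70 ± 0.34), for Nusap1, which binds spindle microtubules (1.41 ± 0.63 and 0.53 ± 0.58), and for Foxm1, the transcription factor of mitotic genes (1.63 ± 0.66 and 0.49 ± 0.51). The motor genes Kif11 (0.79 ± 0.41 and 0.22 ± 0.34) and Kif20a (0.64 ± 0.43 and -0.06 ± 0.33) and the histone gene Cenpa (0.64 ± 0.27 and 0.34 ± 0.25) had smaller differences in both fits.

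**Figure D3:**
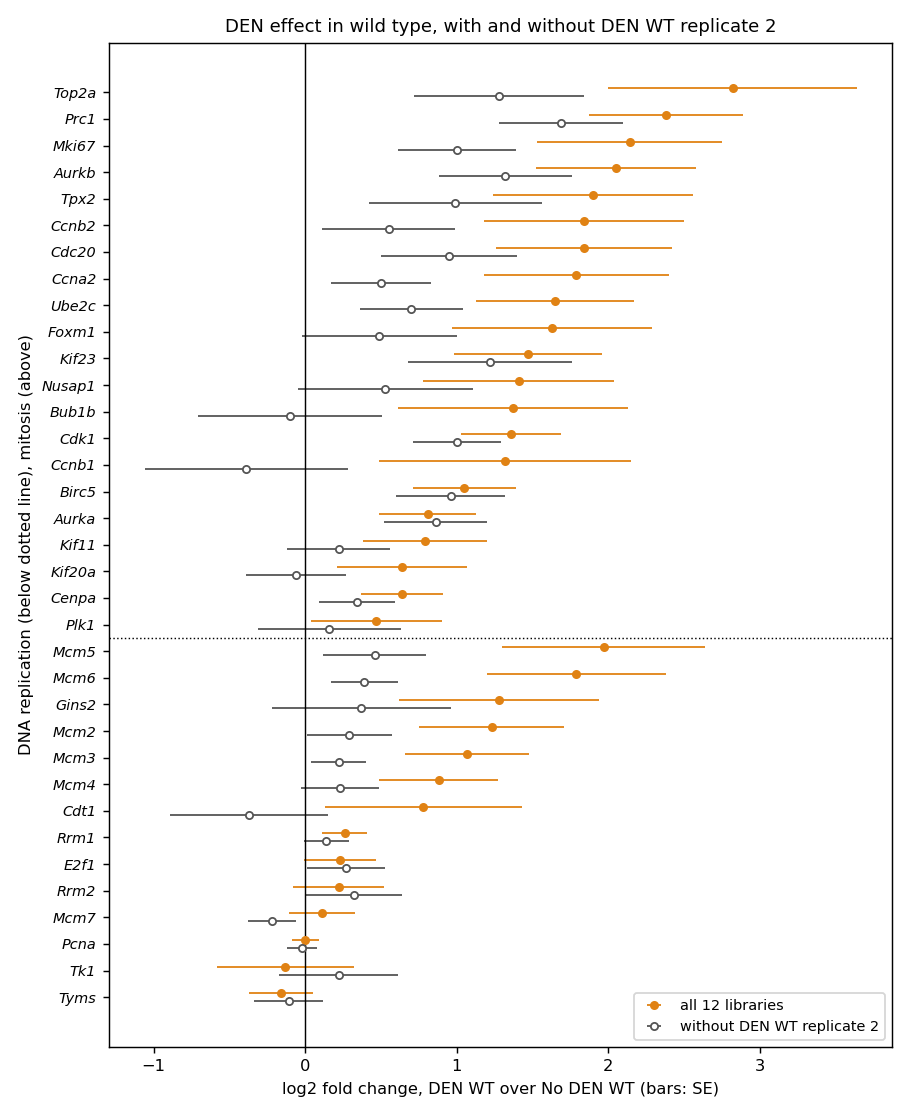
Log2 fold change of DEN WT over No DEN WT for the 35 tested genes, from edgeR with all 12 libraries (filled) and without DEN WT replicate 2 (open); bars are standard errors. Most open points lie left of the filled ones, and Prc1 (1.69), Aurkb (1.32), Top2a (1.28), Kif23 (1.22), Cdk1 (1.0), Mki67 (1.0), Birc5 (0.96) and Aurka (0.86) lie farther right of 0 than most without the library. Tpx2 and Cdc20 lie between Mki67 and Aurka in that fit.

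Counted over the 35 genes, 32 (91.4%) had a log2 fold change above 0 for DEN in WT, against 52.3% of all genes tested, and the median was 1.28, against 0.03. All 21 mitosis genes were above 0, with a median of 1.47 and a range of 0.47 to 2.82. The groups did not overlap, upward, in 14 of 35 (3 of 14 DNA replication genes and 11 of 21 mitosis genes), against 18.4% of all genes, and downward in 0, against 17.6%. At an unadjusted p under 0.05 stood 21 of the 35, against 29.7% of all genes, but without DEN WT replicate 2 only 8 of the 35 did, against 25.2%, which is no more than the background. Without DEN WT replicate 2 the median over the 35 was 0.37 (all genes 0.00), with 0.23 for the DNA replication genes and 0.70 for the mitosis genes. Of the 35, 28 were then above 0, against 50.4% of all genes, and 15 did not overlap, against 26.1% upward and 25.3% downward over all genes, 0 of the 35 downward. The mitosis genes as counted were thus still mostly above 0 without the library that stood apart, at smaller differences. DESeq2 called 11 of the 35 with all libraries, against 15.1% of all genes. Limma-voom called 0, against 2.32%, and with quality weights 7, all upward, against 31.2% of all genes in either direction.

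In labelled knockout livers none of the 35 genes passed the test for DEN, while 0.194% of all genes did, or 7.06% in the fit without DEN WT replicate 2, where again none of the 35 passed. In edgeR 1 gene, E2f1, had an unadjusted p under 0.05, against 19% of all genes. DESeq2 called 0 of the 35, against 6.83% of all genes, and limma-voom with quality weights, which gives a deviating library less weight, called 2, Birc5 and Plk1, both downward, against 18.1%. The median log2 fold change was -0.14 (all genes -0.03), with 0.07 for the DNA replication genes and -0.21 for the mitosis genes, and 15 of 35 were above 0, against 47.5% of all genes. The sign of the median depended on the scaling: with library size in place of TMM, which moved the median of all genes to 0.25, the median of the 35 was 0.14. Mki67 had 1.38, 0.945 and 1.39 CPM in DEN labelled knockout, against 0.730, 1.23 and 0.993 CPM in No DEN labelled knockout. Top2a had 0.970, 0.823 and 0.515 CPM in DEN labelled knockout, against 0.768, 0.686 and 0.736 CPM in No DEN labelled knockout. Prc1 had 0.470, 0.244 and 0.303 CPM in DEN labelled knockout, against 0.384, 0.325 and 0.478 CPM in No DEN labelled knockout. The groups overlapped for all 3, with log2 fold changes of 0.33 ± 0.59, 0.08 ± 0.78 and -0.22 ± 0.49.

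Cdk1 had 1.56, 1.22 and 1.18 CPM in DEN labelled knockout, against 1.27, 1.70 and 1.91 CPM in No DEN labelled knockout (log2 fold change -0.30 ± 0.32). Mcm5 had 2.38, 1.55 and 1.76 CPM in DEN labelled knockout, against 0.922, 1.88 and 1.03 CPM in No DEN labelled knockout (0.57 ± 0.67). Both overlapped. The groups did not overlap, upward, for Mcm3 (0.48 ± 0.41), Mcm4 (0.52 ± 0.39) and E2f1 (0.55 ± 0.25), 3 of 35 against 14.8% of all genes. Downward they did not overlap for Birc5 (-0.59 ± 0.34), 1 of 35 against 16.5% of all genes. On the deposited TPM scale, where 48.2% of all genes were higher in every DEN library, 10 of the 35 were, and 0 were lower, so this count follows the scale.

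Between genotypes with DEN, none of the 35 genes passed, and 0 of all genes tested did (percentage called 0), with 9 of the 35 and 1308 of all genes (10.1%) at an unadjusted p under 0.05 in edgeR. Without DEN WT replicate 2 the count was 2 of the 35, against 7.67% of all genes. DESeq2 called 140 genes (1.08%), none of them among the 35. The fold changes were mostly below 0, with 3 of 35 above it against 49.8% of all genes, and a median of -0.80. DEN WT replicate 2 set that size: without it the median was -0.03, with -0.05 for the DNA replication genes and 0.07 for the mitosis genes, and 16 of 35 were above 0, against 54.3% of all genes. Ccna2 had 0.911, 0.731 and 0.787 CPM in DEN labelled knockout, against 0.558, 3.79 and 0.865 CPM in DEN WT. Ccnb1 had 0.176, 0.152 and 0.273 CPM in DEN labelled knockout, against 0.131, 1.13 and 0.160 CPM in DEN WT. In both, the labelled knockout livers were near the level of DEN WT replicates 1 and 3, and the log2 fold changes (-1.11 ± 0.58 and -1.26 ± 0.81) became 0.20 ± 0.32 and 0.46 ± 0.66 without replicate 2. Mcm2 had 3.26, 3.11 and 3.54 CPM in DEN labelled knockout, against 3.05, 13.6 and 4.23 CPM in DEN WT (-1.08 ± 0.47, and -0.13 ± 0.28 without replicate 2).

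A group of genes was lower in all 3 DEN labelled knockout livers than in all 3 DEN WT livers, replicate 2 or not. They were Pcna, Rrm1, Aurka, Aurkb, Birc5, Tpx2, Prc1 and Cdc20, 8 of 35 against 11.4% of all genes, and 8 of 35 against 19.7% without replicate 2, which is close to the background. This separation was read in TMM-scaled CPM. In TPM the groups overlapped for Pcna, Aurkb and Tpx2, and for Prc1 they met at 0.23 TPM. Birc5 had 1.09, 1.19 and 1.21 CPM in DEN labelled knockout, against 2.46, 2.86 and 2.28 CPM in DEN WT. This was the clearest separation, at about the same size without replicate 2: -1.12 ± 0.34 (edgeR adjusted p = 0.361) with it and -1.01 ± 0.36 (adjusted p = 0.502) without. The adjusted p for Birc5 ran from 0.0275 to 0.796 over the alternatives, and limma-voom with quality weights called it and no other of the 35, against 3.49% of all genes. Aurka was at -0.80 ± 0.31 and -0.83 ± 0.34 without replicate 2, Prc1 at -1.39 ± 0.46 and -0.68 ± 0.37, and Tpx2 at -2.10 ± 0.66 and -1.17 ± 0.57. Pcna had 25.0, 24.0 and 24.2 CPM in DEN labelled knockout, against 28.9, 28.7 and 26.2 CPM in DEN WT, a small difference of -0.19 ± 0.09.

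Without DEN, most mitosis genes had fold changes above 0 for labelled knockout over WT livers, but none passed the test. In edgeR none of the 35 did, and the smallest adjusted p was 1, while 0 of all genes passed (percentage called 0), with 4 of the 35 and 477 of all genes (3.7%) at an unadjusted p under 0.05. In the fit without DEN WT replicate 2, which shares its estimate of spread over all groups, 11 of the 35 were at an unadjusted p under 0.05, against 8.44% of all genes, and again none passed. DESeq2 called 5 genes (0.0387%), none of them among the 35. The median log2 fold change was 0.90 for the mitosis genes, 20 of 21 above 0, and -0.04 for the DNA replication genes, 7 of 14 above 0, against 0.01 for all genes, of which 51.7% were above 0. The difference between both kinds of genes was not tested, and Kif20a was the mitosis gene below 0 (-0.38). Cdk1 had 1.27, 1.70 and 1.91 CPM in No DEN labelled knockout, against 0.815, 0.747 and 0.848 CPM in No DEN WT. Ccna2 had 0.806, 1.23 and 1.21 CPM in No DEN labelled knockout, against 0.481, 0.510 and 0.516 CPM in No DEN WT. Both were higher in every labelled knockout liver, with log2 fold changes of 1.01 ± 0.33 (unadjusted p = 0.0112) and 1.10 ± 0.62. Prc1 had 0.384, 0.325 and 0.478 CPM in No DEN labelled knockout, against 0.185, 0.136 and 0.184 CPM in No DEN WT. Its log2 fold change was 1.22 ± 0.53, close to those of Kif23 (1.22 ± 0.50) and Plk1 (1.08 ± 0.43), all without overlap.

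Top2a had 0.768, 0.686 and 0.736 CPM in No DEN labelled knockout, against 0.333, 0.102 and 0.590 CPM in No DEN WT. The groups did not overlap, and the 3 labelled knockout livers were close together (1.10 ± 0.83). Mki67 had 0.730, 1.23 and 0.993 CPM in No DEN labelled knockout, against 0.741, 0.476 and 0.442 CPM in No DEN WT. Here replicate 1 of the labelled knockout lay just under the highest WT liver (0.83 ± 0.62). In all, 12 of the 35 were higher in every labelled knockout liver, against 4.76% of all genes. All 12 were mitosis genes: Foxm1, Cdk1, Ccna2, Aurkb, Plk1, Kif11, Kif23, Nusap1, Prc1, Top2a, Cdc20 and Ube2c. On the library size CPM scale the count was 12 of 35, against 3.39% of all genes, and on the TPM scale 8 of 35, against 2.01%. The adjusted p stayed over the threshold for all 35 under each of the alternatives run.

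**Figure D4:**
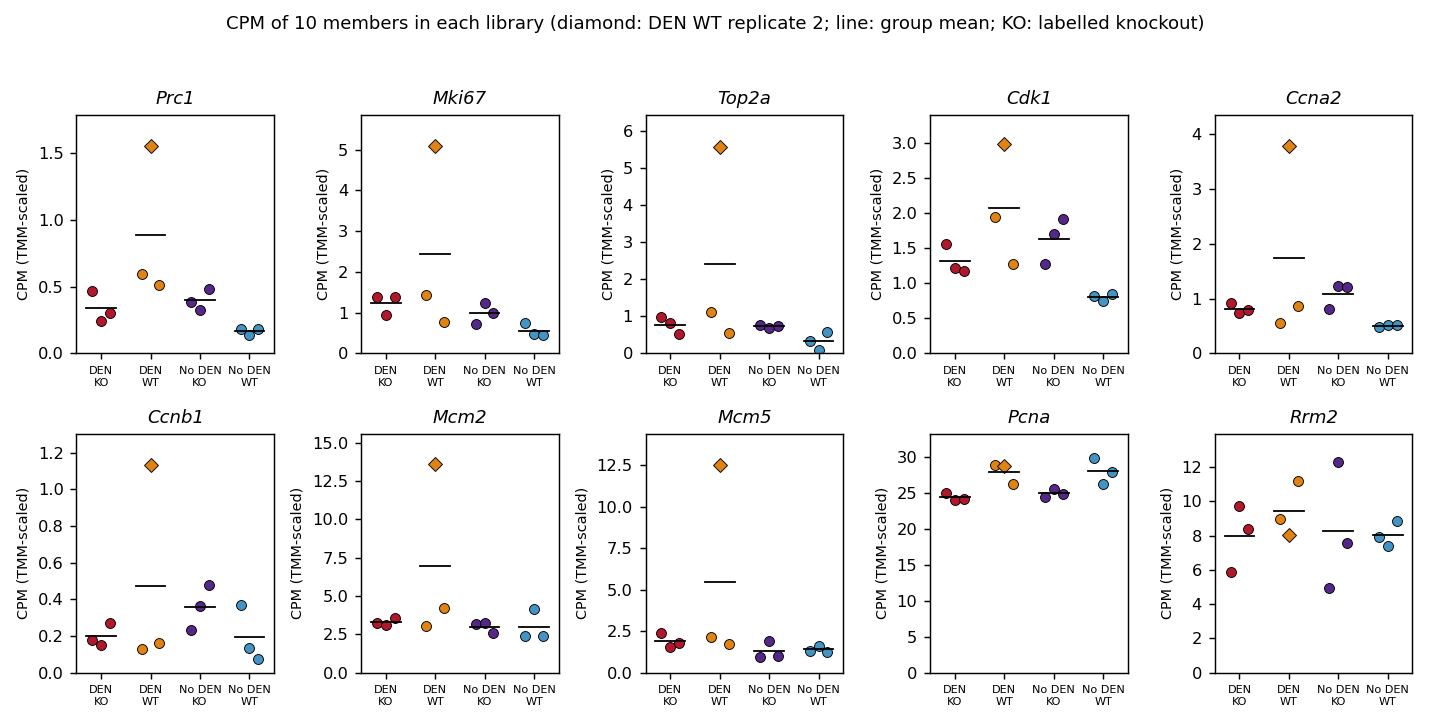
TMM-scaled CPM of 10 genes in each of the 12 libraries, with lines at group means and a diamond for DEN WT replicate 2; KO stands for labelled knockout. For Prc1, Cdk1, Ccna2 and Top2a the 3 No DEN labelled knockout points lie above the 3 No DEN WT points, whereas they lie below them for Pcna and overlap with them for Rrm2.

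Most DNA replication genes overlapped between genotypes without DEN. Mcm2 had 3.15, 3.21 and 2.57 CPM in No DEN labelled knockout, against 2.37, 4.18 and 2.36 CPM in No DEN WT (0.00 ± 0.48). Mcm5 had 0.922, 1.88 and 1.03 CPM in No DEN labelled knockout, against 1.30, 1.63 and 1.25 CPM in No DEN WT (-0.13 ± 0.68). Both overlapped. Rrm2 had 4.95, 12.3 and 7.54 CPM in No DEN labelled knockout, against 7.92, 7.37 and 8.88 CPM in No DEN WT (0.04 ± 0.30), with the labelled knockout livers spread on either side. No DEN labelled knockout replicate 1 was the lowest of the 12 libraries in 6 of the 14 DNA replication genes. Pcna had 24.5, 25.5 and 24.8 CPM in No DEN labelled knockout, against 29.9, 26.2 and 27.9 CPM in No DEN WT. It was lower in every labelled knockout liver (-0.17 ± 0.09), 1 of 35 against 5.64% of all genes. Pcna was thus slightly lower in the labelled knockout livers under both treatments, but neither difference passed.

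Averaged over both genotypes, none of the 35 genes passed the test for DEN in edgeR, while 16.5% of all genes passed in either direction, and 11 of the 35 had an unadjusted p under 0.05, against 35.9%. DESeq2 called 4 of the 35 (Mcm3, Mcm5, Mki67 and Top2a), against 25% of all genes. The smallest adjusted p was 0.0568, that of Prc1 (log2 fold change 1.08 ± 0.35), the medians were 0.33 for the DNA replication and 0.59 for the mitosis genes, and 30 of 35 were above 0, against 50.6% of all genes. Without DEN WT replicate 2 these medians were 0.14 and 0.20, 29 of 35 were above 0, against 49.4% of all genes, and 6 of the 35 had an unadjusted p under 0.05, against 39.2%. None of the 35 passed then either, while 23.6% of all genes did. Library size scaling called 11 of the 35, all upward, in a fit where 93.7% of all calls were upward and the median of all genes moved to 0.28. The difference between the DEN effects in labelled knockout and in WT, the interaction, passed for none of the 35 and for 0 of all genes (percentage called 0) in edgeR. At an unadjusted p under 0.05 there were 11 of the 35 and 842 of all genes (6.52%), or 7 of the 35 and 6.77% of all genes without DEN WT replicate 2, and DESeq2 called 13 genes (0.101%), none among the 35. Its median was -1.75 over the mitosis genes, all 21 below 0, and -0.32 over the DNA replication genes, and 2 of 35 were above 0, against 47.4% of all genes. Without DEN WT replicate 2 these medians were -0.91, with 19 of 21 below 0, and -0.03, and 8 of 35 were above 0, against 51% of all genes. Prc1 had an interaction of -2.60 ± 0.70 (edgeR adjusted p = 0.735), and -1.91 ± 0.54 (adjusted p = 0.666) without replicate 2. Cdk1 had -1.66 ± 0.46, and -1.30 ± 0.39 without it, with the same adjusted p values as Prc1. The comparisons share groups, so a high No DEN labelled knockout level enters both the genotype difference without DEN and the interaction.

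**Figure D5:**
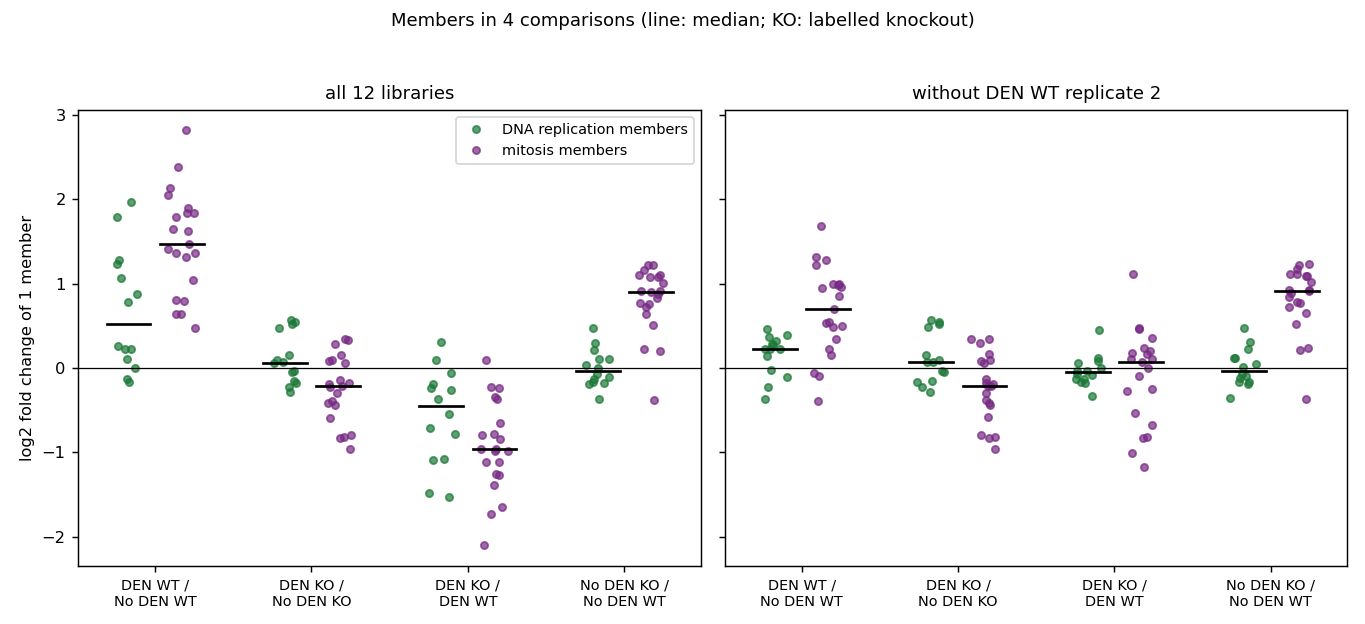
Log2 fold changes of the 14 DNA replication and 21 mitosis genes in 4 comparisons, from all 12 libraries (left) and without DEN WT replicate 2 (right); each point is 1 gene and lines are medians, with KO for labelled knockout. The mitosis median for DEN in WT is 1.47 on the left and 0.70 on the right, that for labelled knockout with DEN is -0.96 and 0.07, and that for labelled knockout without DEN is 0.90 and 0.91.

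The other 5 genes were not tested. Cdc6, which loads the helicase with Cdt1, Bub1, a checkpoint kinase, and Cenpe, a kinetochore motor, were not listed in the No DEN WT table, and Melk, a mitotic kinase, was not listed in the No DEN labelled knockout table. A table lists a gene only at 0.01 TPM or more in all 3 of its libraries, so this is no measured 0. Cdc6 had 10, 9 and 5 counts in DEN labelled knockout, 15, 121 and 14 counts in DEN WT and 7, 5 and 4 counts in No DEN labelled knockout. Bub1 had 3, 4 and 1 counts in DEN labelled knockout, 8, 22 and 1 in DEN WT and 3, 1 and 3 in No DEN labelled knockout. Melk had 22 counts in DEN WT replicate 2 and 1 to 7 in the other 8 libraries of its 3 tables, Cenpe 23 counts against 3 to 10 in the other 8 of its own. Cenpf was listed everywhere but had too few reads, 37 in DEN WT replicate 2 and 3 to 10 in the other 11. All 5 were highest in DEN WT replicate 2, as were most of the tested genes.

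Other genes of both processes were read from 2 wider lists. Of 42 other DNA replication genes, 39 were tested. With DEN in WT, Ccne2, the cyclin E2 of S phase entry, rose, with 2.89, 3.38 and 2.69 CPM in DEN WT, against 0.555, 0.543 and 0.405 CPM in No DEN WT. Its groups were far apart with or without replicate 2: the fold change in log2 was 2.57 ± 0.41 (adjusted p = 0.0266 in edgeR), or 2.47 without that library (adjusted p = 0.0211). Gins1, a GINS subunit like Gins2, fell, with 2.30, 1.48 and 1.67 CPM in DEN WT, against 3.85, 4.01 and 4.53 CPM in No DEN WT (-1.19 ± 0.23, edgeR adjusted p = 0.0352, and -1.06 without replicate 2, adjusted p = 0.041). In all, 1 of the 39 rose and 1 fell with DEN in WT, against 1.39% and 1.36% of all genes. Averaged over genotypes, 4 of the 39 rose, against 8.4% of all genes, among them Ccne2 (2.21 ± 0.29), Pola1, the catalytic subunit of DNA polymerase alpha (0.68 ± 0.20), and Slbp, which binds histone messages (0.34 ± 0.08), and 1 fell, Gins1 (-0.82 ± 0.16), against 8.1%. Of 54 other mitosis genes, 35 were tested and 1 rose with DEN in WT, against the same 1.39% of all genes. This was Cks1b, a subunit of cyclin-dependent kinases, with 8.11, 13.6 and 6.83 CPM in DEN WT, against 4.96, 2.75 and 2.91 CPM in No DEN WT (1.43 ± 0.33, edgeR adjusted p = 0.0486). Without replicate 2 the Cks1b call for DEN in WT was lost (1.08, adjusted p = 0.0671). Averaged over genotypes Cks1b also rose, as 1 of 35, against 8.4% of all genes (0.84 ± 0.23, edgeR adjusted p = 0.0336). That call was kept without replicate 2 (0.67, edgeR adjusted p = 0.0349), where 10.9% of all genes rose. The medians for DEN in WT were 0.45 over the other DNA replication genes and 0.68 over the other mitosis genes, and without replicate 2 they were 0.12 and 0.25. In the genotype comparisons and for DEN in labelled knockout none of either list passed, although Ccne2 did for DEN in labelled knockout without DEN WT replicate 2 (1.86 in either fit, edgeR adjusted p = 0.0768 with it and 0.0254 without). For labelled knockout over WT without DEN, the median was 0.26 for the other mitosis genes, against 0.90 for the mitosis genes chosen here. Of the 35 other mitosis genes 25 were above 0, against 20 of the 21 chosen here and 51.7% of all genes. Only 3 of these 35 were higher in every labelled knockout liver, against 12 of the 21 chosen here and 4.76% of all genes.

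Cells other than hepatocytes also divide in liver, so their markers were summed in every library. All 4 markers of leukocytes were measured, at 23.0 to 107 CPM in DEN labelled knockout, 25.2 to 44.4 CPM in DEN WT, 13.8 to 21.0 CPM in No DEN labelled knockout and 11.4 to 19.2 CPM in No DEN WT. DEN WT replicate 2, with the highest mitosis sum, had 44.4 CPM, while DEN labelled knockout replicate 1 had 107 CPM and a mitosis sum of 17.02 CPM. T and NK cell markers, all 8 measured, were at 4.59 CPM in replicate 2, inside the 2.33 to 8.14 CPM of the others, and Kupffer cell and macrophage markers, all 8 measured, at 90.9 CPM, below the 167 to 869 CPM of the other 5 DEN libraries and inside the 42.8 to 149 CPM of the No DEN libraries, with 3 of the 8 lowest of all 12 there. Of 8 B and plasma cell markers 6 were in all tables, without Ms4a1 and Pax5, and summed to 5.54 CPM in replicate 2, inside 3.11 to 46.4 CPM. Stellate cell markers, all 8 measured, summed to 313 CPM in replicate 2, above the 65.3 to 223 CPM of the other 11. The collagen genes Col3a1 (142 CPM, at most 22.3 in the others) and Col1a1 (81.8 CPM, at most 7.04) carried that sum. Pdgfrb (14.3 CPM, at most 7.48 in the others) was also highest there. By contrast, Dcn (44.3 CPM), Reln (18.7 CPM), Lrat (7.37 CPM) and Ngfr (1.35 CPM) were lower in replicate 2 than in every other DEN library. Des (2.98 CPM) lay inside the range of the other DEN libraries. Of the hepatocyte markers, Pck1, an enzyme of gluconeogenesis, had 142 CPM in replicate 2, against 2720 to 6100 CPM in the other 11, and Cps1, of the urea cycle, had 667 CPM, against 1630 to 3400 CPM. Hnf4a, a hepatocyte transcription factor, had 476 CPM there, against 517 to 1060 CPM. Endothelial markers, all 8 measured, ran from 168 to 192 CPM in DEN labelled knockout and from 206 to 215 CPM in DEN WT. They ran from 59.2 to 85.5 CPM in No DEN labelled knockout and from 87.1 to 106 CPM in No DEN WT. Their sum was thus lower in every labelled knockout liver than in every WT liver under both treatments. Replicate 2 was the highest of the 12 in 4 of the 8, Kdr, Cdh5, Pecam1 and Tie1. It was the lowest in 1, Clec4g, at 10.8 CPM, against 11.3 to 42.9 CPM in the other 11. The part of these differences in hepatocyte, Kupffer, stellate and endothelial markers in the levels of the S phase and mitosis genes was not tested. Without DEN, the leukocyte range was 13.8 to 21.0 CPM in labelled knockout and 11.4 to 19.2 CPM in WT, overlapping. The endothelial ranges without DEN did not overlap. The part of either in the mitosis gene levels was not tested.

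Some of these genes share sequence or position with others. Prc1 overlaps Rccd1 on the opposite strand, Ccna2 overlaps Exosc9, Tk1 overlaps Afmid, Nusap1 overlaps Oip5, Cdc20 overlaps Elovl1 and Ube2c overlaps Tnnc2, also on opposite strands. Mcm7 overlaps Ap4m1 and Cops6, Gins2 overlaps Gse1 and Kif20a overlaps Cdc23, again on opposite strands. Foxm1 overlaps Gm44596 and Tex52 on its own strand. No strand setting is given, so reads from such overlaps cannot be told apart. Pcna, Tyms, Ccnb1 and Ccnb2 have named pseudogenes. For Birc5 the ratio of count to TPM, which reflects the transcript length the authors' program assigned, ranged over 1.34 on the log2 scale between libraries, at percentile 99.9 of 11835 genes. It was longest in No DEN WT replicate 2 and shortest in DEN WT replicate 2, so counts and TPM of Birc5 differ in their order and its levels are less certain than those of the other genes.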

How the data were processed

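Liver RNA of 12 mice was sequenced, 3 mice per group and, per the design text in the labels, independent mice. Per the file headers, the authors' 4 deposited tables (1 per group) give read counts and TPM per gene and library; the deposited counts are expected counts, since 6.58% to 7.39% of values per library are not whole. The submitters' processing notes name the build GRCm38.p6 and the programs RSEM (1.3.1), HISAT2 (2.2.1), DESeq2 (1.4.5) and Bowtie2 (2.3.4.3), with no roles given in the sources used here. A table lists only genes of 0.01 TPM or more in its 3 libraries, so 13371 genes in all 4 tables were used, with at least 99.8% of each library's counts. Identifiers matched the RefSeq table for 14908 of 14944 genes.

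Counts were rounded and fitted with edgeR 4.0.16 (TMM, filterByExpr by group, robust quasi-likelihood, 1 coefficient per group, 8 residual degrees of freedom), with Benjamini-Hochberg adjustment over 12909 genes at 0.05. The steps were tested on simulated data. Totals of 29668861 to 31111765 counts leave mitosis genes with few reads, which limits their precision. No 2 libraries of the same group agreed within sampling noise, and pairs across groups were not checked in this way. Alternatives were RLE and library size scaling, DESeq2 1.42.0, limma-voom (limma 3.58.1) without and with quality weights, other filters, genes missing from a table at 0, only the groups compared, a replicate block and leaving out each library. Comparing counts without overlap on other scales was added after seeing the data.

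The members and lists were chosen with earlier results of these data known. Values in every library are given for members past the threshold and for 9 set members (Mki67, Top2a, Cdk1, Ccna2, Ccnb1, Mcm2, Mcm5, Pcna, Rrm2); those of Birc5 were added after its values were seen. From the wider lists, genes with the smallest p were named. Same-numbered libraries of No DEN labelled knockout and No DEN WT deviated together (correlations of 0.122, 0.1004 and 0.291, all over 0.1). Any pairing rests on these correlations alone, as the labels state none, and the main fit took the libraries as unpaired. A replicate block was fitted only as an alternative, and it called 0 genes there, as without it. No other 2 groups had all correlations over 0.1, though DEN and No DEN labelled knockout had 0.2052, -0.006348 and 0.2456.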

Additional observations from a re-analysis of the deposited data

Results flagged for a closer look

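Birc5 had DEN differences of opposite sign in the 2 genotypes, with no overlap of libraries in either. Its log2 fold change with DEN was -0.59 ± 0.34 (SE) in labelled knockout, all 3 DEN livers below all 3 No DEN livers, and 1.05 ± 0.34 in WT, all 3 DEN livers above all 3 No DEN livers. The difference itself, the interaction, was -1.63 ± 0.48 and did not pass in edgeR (adjusted p = 0.735); it was -1.54 ± 0.50 (adjusted p = 0.686) without DEN WT replicate 2. On the library size CPM and the TPM scales the labelled knockout groups overlapped for Birc5.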

How the results depend on the processing

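Of 4526 log2 fold changes of single genes under the alternatives, 4455 kept their side of the threshold, 60 came to pass, 11 no longer passed and 0 called values turned sign; 157 turned sign while passing in neither fit. For DEN in WT, where 354 genes and 1 of the 35 were called, library size scaling called 1379 and 6, DESeq2 1953 and 11, quality weights 4029 and 7, genes missing from a table at 0 gave 566 and 3, only the groups compared 0 and 0, limma-voom called 0 of the 35, and leaving out each library gave 0 to 1038 genes and 0 to 9 of the 35. The most came without DEN WT replicate 3. For DEN in labelled knockout (25 genes, 0 of the 35) library size scaling called 337 genes, DESeq2 882, quality weights 2337 with 2 of the 35, genes at 0 gave 83, only the groups compared 53, and leaving out each library 0 to 912 genes and 0 of the 35.

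For the knockout label with DEN (0 genes) DESeq2 called 140, quality weights 451 with 1 of the 35, and genes at 0 gave 23. Without DEN DESeq2 called 5 and genes at 0 gave 2. For the mean DEN effect (2131 genes, 0 of the 35) library size scaling called 3856 and 11, DESeq2 3232 and 4, quality weights 5417 and 4, genes at 0 gave 1 of the 35, and leaving out each library 656 to 3046 genes and 0 to 5 of the 35. For the interaction (0 genes) DESeq2 called 13 and genes at 0 gave 11. Only the groups compared was not run for the last 2 comparisons.

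With the replicate block DEN in WT gave 429 genes and 0 of the 35, Prc1 being lost (adjusted p = 0.059); it changed no other call of the 35 and left 0 genes for the knockout label with and without DEN. Correlations of same-numbered libraries ran from -0.2128 to 0.291. In CPM in place of TPM the sums of DEN over No DEN labelled knockout were 1.027 (1.311 in TPM) for the DNA replication and 0.8989 (1.174 in TPM) for the mitosis genes. Without overlap, in labelled knockout with against without DEN, 8 of the 35 were higher in library size CPM, against 37% of all genes. In TPM 10 were higher, against 48.2%, and in the scale used 3, against 14.8%. Lower were 0 in library size CPM (3.36% of all genes), 0 in TPM (1.66%) and 1 in the scale used (16.5%). In labelled knockout against WT with DEN, 5 were lower in library size CPM, against 9.6% of all genes. In TPM 4 were lower, against 9.79%, and in the scale used 8, against 11.4%. The cause of these shifts was not tested. At a few counts per library, smaller differences of low mitosis genes could go undetected.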
